A study of Homo sapiens with 6 samples.

Results

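The proteasome subunit and assembly genes were followed in bulk RNA-seq libraries of the human colorectal cancer line HCT116, with and without knockdown of GDPD5, a glycerophosphodiester phosphodiesterase gene. Members were all rows of the count table whose Ensembl ID belongs to a protein-coding gene with a symbol starting with PSMA, PSMB, PSMC, PSMD, PSME, PSMF or PSMG. This gave 48 of the 79302 rows, and the other two inducible catalytic beta subunits were outside the rule. The groups were 3 libraries with a control shRNA (shCtrl) and 3 with an shRNA against GDPD5 (shGDPD5). The text of the paper places both groups in radioresistant HCT116 at 6 h after 4 Gy, whereas the sample labels name the cell line and the shRNA alone. Neither the labels nor the methods say which GDPD5 shRNA was sequenced or whether replicates were grown as separate cultures. All p-values therefore measure only the spread between these libraries, which may be technical.

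Total estimated counts ran from 16715447 to 18510670 per library. Values below are CPM, counts scaled to the library total after TMM normalization, given in the order of replicates 1, 2 and 3. GDPD5 itself was at 8.33, 11.6 and 9.75 CPM in shCtrl and at 5.44, 5.55 and 5.19 CPM in shGDPD5 (log2 fold change -0.88, edgeR adjusted p = 0.000116), and the groups did not overlap. The shCtrl replicate 1 library stood apart from the other two controls, and the chi-square of its counts against theirs, per degree of freedom, was 6.14 and 7.13, where the other pairs within a group gave 1.66 to 3.35. All 5 epithelial markers (EPCAM, CDH1, KRT8, KRT18, KRT19) were well expressed and were called lower in shGDPD5, as were 30.1% of all tested genes. Their summed level was 3162 to 3601 CPM in shCtrl and 2517 to 2625 CPM in shGDPD5. KRT8 changed least, with overlapping groups (log2 fold change -0.16, edgeR adjusted p = 0.0304). Leukocyte and endothelial markers stayed below the count filter in every library, with CD3E and CDH5 at 0, and of the 4 fibroblast markers only COL1A1 passed it (log2 fold change 0.11, adjusted p = 0.242), with DCN and LUM at 0. Mitochondrially encoded transcripts held 10.9% to 11.4% of the counts in shCtrl and 12.2% to 12.9% in shGDPD5. The part of these shifts in the results below was not tested.

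The 26S proteasome degrades proteins that carry ubiquitin chains. Its core particle is a stack of rings, with alpha subunits (PSMA) outside and beta subunits (PSMB) inside, and cleaves proteins at sites inside the beta rings. A regulatory particle binds its ends. The base of that particle holds the ATPases (PSMC) that unfold substrates and feed them in, and the lid holds the subunits that remove ubiquitin. Other caps, the 11S activators (PSME1 to PSME3) and PA200 (PSME4), can bind in place of the regulatory particle, and dedicated chaperones (PSMG proteins, PSMD5, PSMD9 and PSMD10) build the particle. The transcription factor NFE2L1 is known for raising the subunit genes together when proteasome activity falls short.

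Promoters of members are shown first where they hold TGACNNNGC. This is the core of the antioxidant response element, to which NFE2L1 binds with a small MAF protein. Windows ran from 250 bases before to 50 bases after the RefSeq start site on GRCh38.p14, and both strands were searched. The motif was present in 13.3% of all 35116 windows and in at least 1 window of 16.1% of all 27305 genes. Unlike the members, those genes were not limited to protein-coding ones. Among the 42 members with a window the motif was present for 14 genes (33.3%). These were 9 of the 27 members with a window that were higher in shGDPD5, 1 of the 2 that were lower and 4 of the 11 that passed no test. All members without a window were among those that rose. Each stretch below is 41 bases long and reads 5′ to 3′ along the gene, with the motif in capitals (the reverse complement in PSMC5 and PSME4). The first 5 belong to genes that rose, and the last pair to 11S activator genes that did not rise. Not all matches are printed. Among those left out are PSMA4 and PSMG2, which rose, and PSMD5, PSMD9 and PSMG1, which passed no test.
PSMB3: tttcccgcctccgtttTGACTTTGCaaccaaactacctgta
PSMD3: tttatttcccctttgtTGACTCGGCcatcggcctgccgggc
PSMD12: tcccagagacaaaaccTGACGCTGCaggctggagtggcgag
PSMC5: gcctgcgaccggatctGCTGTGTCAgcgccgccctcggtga
PSME4: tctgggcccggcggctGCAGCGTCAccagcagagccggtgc
PSME1: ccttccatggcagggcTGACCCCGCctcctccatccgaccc
PSME2: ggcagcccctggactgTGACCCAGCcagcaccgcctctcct
The stretches lie at chr17:38752621-38752661 (PSMB3, plus strand), chr17:39980754-39980794 (PSMD3, plus), chr17:67366718-67366758 (PSMD12, minus), chr17:63827648-63827688 (PSMC5, plus), chr2:53971003-53971043 (PSME4, minus), chr14:24136092-24136132 (PSME1, plus) and chr14:24146761-24146801 (PSME2, minus). In PSMB3 the motif begins 104 bases before the start site, in PSMD3 37 bases, in PSME1 86 bases and in PSME2 175 bases. The CCAAT box, bound by NF-Y, was present for 21 of the 42 member genes (50%) against 39.7% of all genes. It occurred for 15 of the 27 members that rose, for 0 of the 2 that were lower and for 5 of the 11 that passed no test. These matches describe the letters of the windows only. Whether a match goes with the change of a gene was not tested.

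Of the 48 members, 46 passed the count filter. PSMA8, the testis-specific alpha subunit, had 0 counts in all libraries, and PSMB11, the thymus-specific catalytic subunit, had 1 count in shGDPD5 replicate 1 and 0 elsewhere. In the shGDPD5 libraries 33 of the 46 tested members were higher, 2 were lower (PSMB10 and PSME1) and 11 did not pass an adjusted p of 0.05. Over all 16755 tested genes the same test called 59.7%, with 29.7% higher and 30.1% lower. The members therefore held a larger share of higher genes (71.7%) than the table as a whole, in a comparison where most genes were called. The median log2 fold change was 0.53 over the members and 0.01 over all tested genes, whose quartiles were -0.37 and 0.36. Most changes were below 2-fold. The study names more than one fold criterion beside an unadjusted p under 0.05. The shares of all genes given below used the p of edgeR, whereas the study names a t test. With a change of 1 or more on the log2 scale, 3 of the 46 tested members were higher and 0 were lower. The 3 were PSMB6, PSMD2 and PSMC3IP, of which PSMC3IP is no proteasome subunit. Of all 16755 tested genes 902 (5.38%) were higher by this criterion, a share near that of the members. With a fold over 1.5 or under 0.5, 17 of the 46 members were higher, against 13.6% of all genes, and 0 were lower. A test against a minimum fold of 1.2 called 28 of the 46 members higher, against 18.2% of all genes. Without shCtrl replicate 1, 33 members were higher and 5 were lower. The shares of all genes without that library, and of all genes lower by the fold criteria, were not computed. In bulk RNA, more RNA per cell and more cells of one kind cannot be told apart.

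The members took 0.465%, 0.47% and 0.476% of all counts in shCtrl and 0.696%, 0.701% and 0.694% in shGDPD5. The difference was concentrated in the 3 classes that form the body of the 26S particle. Summed over its 17 genes, the core particle was at 1803, 1815 and 1855 CPM in shCtrl and 2700, 2750 and 2684 CPM in shGDPD5, a ratio of means of 1.49. The 9 base genes summed to 1136, 1171 and 1175 CPM against 1822, 1879 and 1825 CPM (ratio 1.59). For the 8 lid genes the sums were 949, 938 and 957 CPM against 1333, 1331 and 1331 CPM (ratio 1.4). The groups were far apart in all 3 classes, with little spread within a group.

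The sums of the activators and of the assembly factors stayed nearer to the controls. The 5 activator and inhibitor genes summed to 529, 522 and 534 CPM in shCtrl and 574, 567 and 581 CPM in shGDPD5 (ratio 1.09). The 7 assembly genes gave 263, 260 and 261 CPM against 272, 286 and 280 CPM (ratio 1.07). Median log2 fold changes were 0.60 for the tested core subunits, 0.57 for the base and 0.57 for the lid, but -0.08 for the activators and 0.01 for the assembly genes. Of all tested genes, 14.2%, 15.1% and 15.4% lay above the core, base and lid medians. The differences between these medians were not tested, since genes of a class are not replicates.

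**Figure D1:**
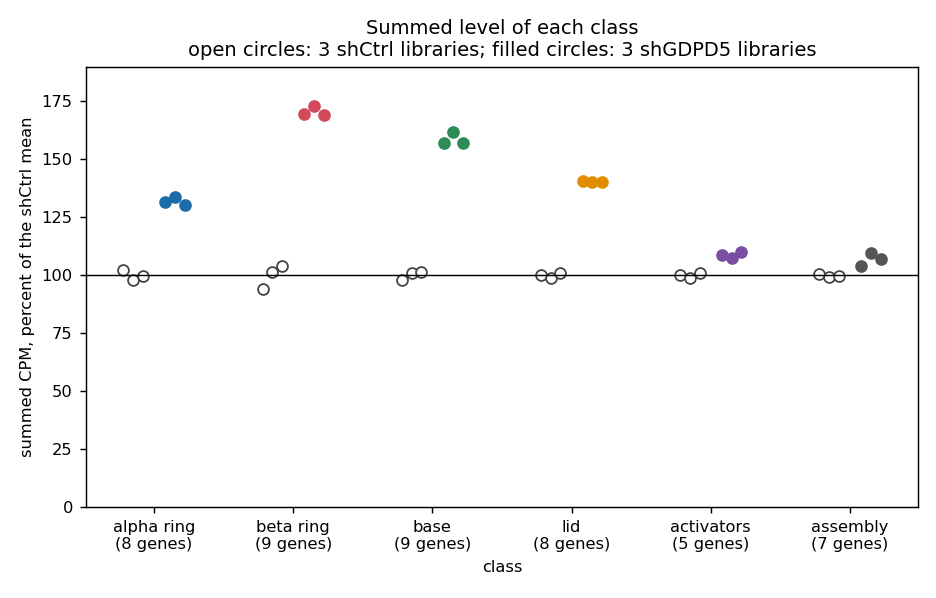
Summed CPM of each class in each library (vertical axis, percent of the mean of the 3 shCtrl libraries) for alpha ring, beta ring, base, lid, activator and assembly genes (horizontal axis). Open circles are shCtrl and filled circles shGDPD5 libraries: the beta ring was raised furthest (ratio of means 1.71), then the base (1.59), the lid (1.4) and the alpha ring (1.32), while activators (1.09) and assembly genes (1.07) stayed near the controls.

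**Figure D2:**
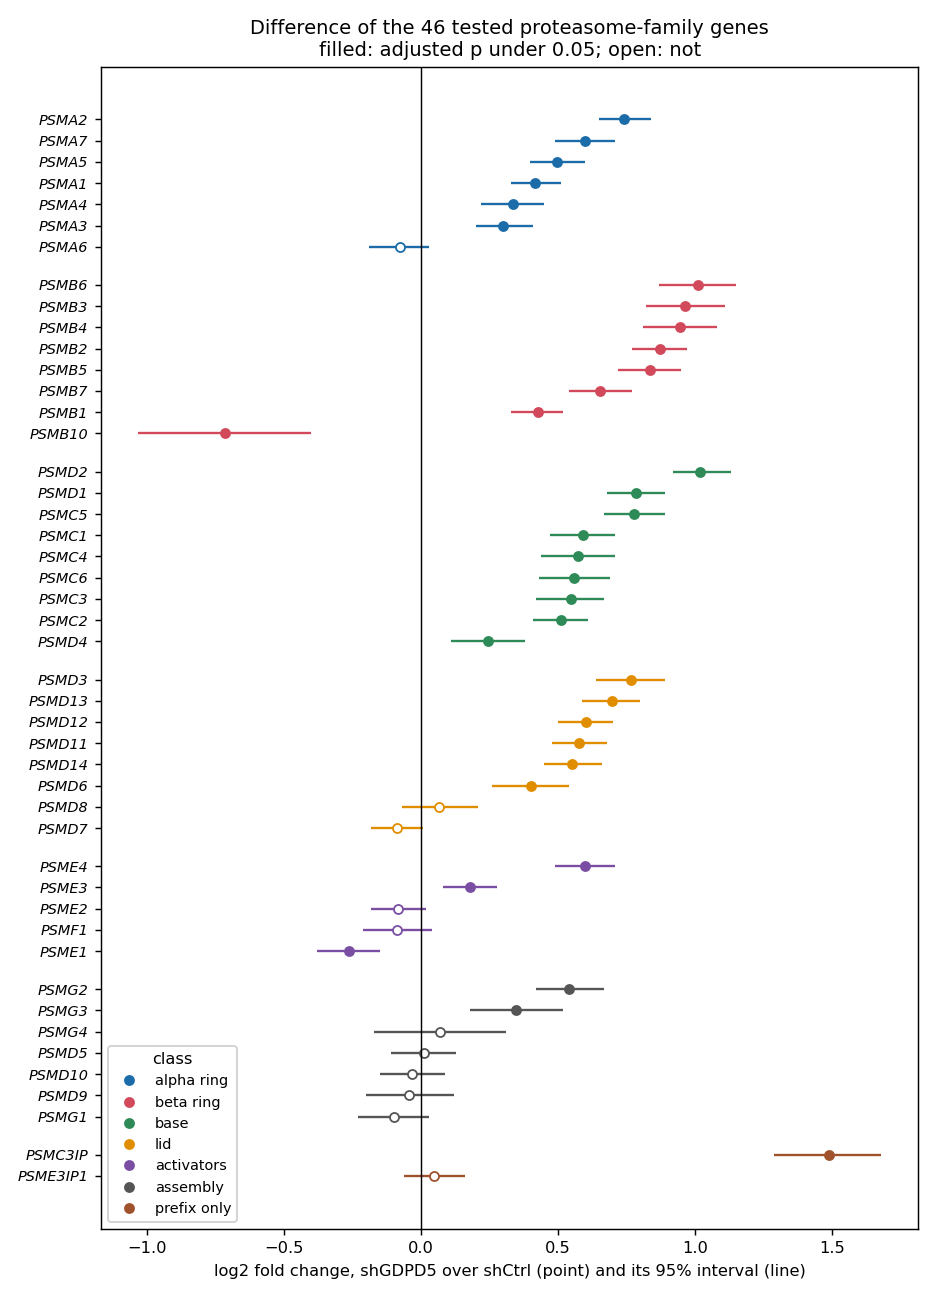
Log2 fold change of shGDPD5 over shCtrl (horizontal axis) for each of the 46 tested members, grouped and coloured by class, with its 95% interval as a line. Filled points passed an adjusted p of 0.05 and open points did not: all 9 base genes were raised, the activators and assembly genes fell on both sides of 0, and PSMB10 and PSME1 were the called genes below 0.

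Within the core particle the beta ring moved further than the alpha ring. Of the 8 tested beta genes 7 rose and 1 fell (median log2 fold change 0.85). The 1 that fell was PSMB10, whose direction is uncertain for the reason given below. Of the 7 tested alpha genes 6 rose and 1 passed no test (median 0.42). Over the 14 constitutive core subunits the mean log2 CPM per kilobase of the beta genes, minus that of the alpha genes, was -0.48, -0.29 and -0.29 in shCtrl and 0.06, 0.07 and 0.06 in shGDPD5. These levels used the median length of the annotated transcripts. With all annotated exon bases as the length, the differences were 0.53, 0.72 and 0.72 in shCtrl and 1.06, 1.07 and 1.07 in shGDPD5. Which ring was higher in a library thus depended on the length used. The shift towards the beta ring between the groups could not depend on it. Each gene has the same length in every library, so lengths cancel between groups.

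The 3 constitutive subunits with a catalytic site all rose. PSMB5, the chymotrypsin-like subunit (chromosome 14, 23016543 to 23035230, minus strand), was at 84.7, 91.2 and 93.4 CPM in shCtrl and 161, 163 and 157 CPM in shGDPD5. All shGDPD5 libraries were above all shCtrl libraries, and the log2 fold change was 0.83 (95% interval 0.72 to 0.95, adjusted p = 3.17e-08). PSMB6, the caspase-like subunit (chromosome 17, 4796144 to 4798503, plus strand), went from 60.4, 72.3 and 72.3 CPM to 137, 140 and 135 CPM. It showed the largest rise of the core particle (log2 fold change 1.01, interval 0.87 to 1.15, adjusted p = 6.13e-08), and shCtrl replicate 1 was its lowest library. PSMB7, the trypsin-like subunit (chromosome 9, 124353466 to 124415444, minus strand), was at 118, 126 and 134 CPM in shCtrl and 199, 194 and 203 CPM in shGDPD5. The groups again did not overlap, with a smaller log2 fold change of 0.66 (interval 0.54 to 0.77, adjusted p = 3.91e-07).

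The non-catalytic beta subunits followed. PSMB3 was at 66.3, 79.7 and 77.9 CPM in shCtrl and 150, 149 and 138 CPM in shGDPD5 (log2 fold change 0.96, SE 0.07, adjusted p = 1.27e-07), close to PSMB6 in size. PSMB4, PSMB2 and PSMB1 rose by log2 fold changes of 0.94, 0.87 and 0.43. Among the beta genes, PSMB1 was thus the one nearest to the alpha genes.

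PSMB10, the inducible trypsin-like subunit that takes the place of PSMB7 in immunoproteasomes, was the beta gene that fell as a row of the table (chromosome 16, 67934502 to 67937087, minus strand). Its level was low in both groups, at 5.69, 5.94 and 7.51 CPM in shCtrl and 4.01, 3.68 and 3.96 CPM in shGDPD5, from counts of 69 to 130. The groups did not overlap, with a log2 fold change of -0.71 (interval -1.03 to -0.40, adjusted p = 0.00099). Per kilobase, PSMB10 was present at 0.0387, 0.038 and 0.045 of the level of PSMB7 in shCtrl and at 0.0162, 0.0153 and 0.0157 in shGDPD5, a change of -1.36 on the log2 scale (exact two-sided permutation p = 0.1, the smallest that 3 against 3 libraries allow).

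The fall of PSMB10 did not hold once its neighbouring row was counted with it. A protein-coding row with no official symbol, AC040162.1 (ENSG00000261884), is annotated on the same strand over 34.8% of the PSMB10 exon bases. It held 49, 38 and 38 counts in shCtrl and 84, 73 and 62 in shGDPD5, and rose (log2 fold change 0.77, adjusted p = 0.00371). Summed, the pair held 147, 143 and 168 counts in shCtrl and 153, 142 and 132 in shGDPD5, groups that overlap, with a log2 fold change of -0.14 (adjusted p = 0.342). How reads were divided between rows is not given in the sources used here, so the direction of PSMB10 is uncertain. The ratio of the summed counts to PSMB7 still differed, by -0.79 on the log2 scale (exact p = 0.1), in a comparison where PSMB7 itself rose.

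PSMA6 was the alpha gene that passed no test, and it has a partner row of the same kind. Its levels were 147, 133 and 147 CPM in shCtrl and 137, 136 and 132 CPM in shGDPD5 (log2 fold change -0.08, interval -0.19 to 0.03, adjusted p = 0.218). AL121594.1, on the same strand over 14.1% of its exon bases, held 264, 312 and 197 counts in shCtrl and 334, 451 and 414 in shGDPD5. With both rows summed, the log2 fold change of PSMA6 was 0.00 (adjusted p = 0.973), still well below that of the other alpha genes. For PSMA2 the row AC010132.3 went the opposite way (log2 fold change -0.26, adjusted p = 0.0364), and the sum rose by 0.62 where PSMA2 alone rose by 0.74.

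**Figure D3:**
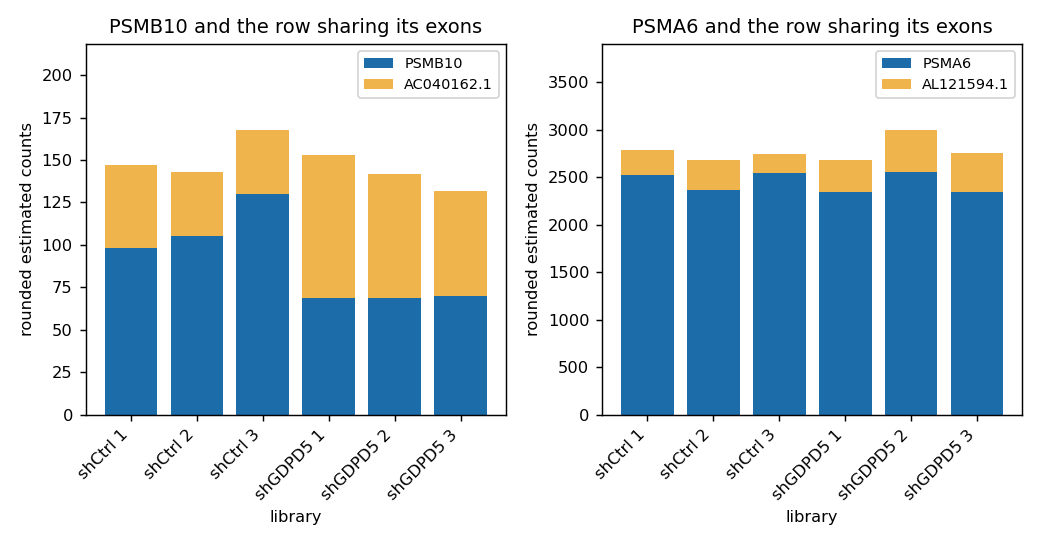
Rounded estimated counts per library (vertical axis) for PSMB10 (left) and PSMA6 (right) in blue, with the same-strand row that shares part of their exons stacked on top in yellow. The PSMB10 bars fell from 98, 105 and 130 to 69, 69 and 70, while the stacked heights of 147, 143 and 168 against 153, 142 and 132 overlapped. The PSMA6 stacks ran from 2674 to 3000 in all 6 libraries.

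The alpha subunits form the gate of the core particle. PSMA2 rose most among them, from 115, 115 and 113 CPM to 190, 196 and 188 CPM (log2 fold change 0.74, SE 0.04, adjusted p = 2.72e-08). PSMA7 followed, from 122, 131 and 138 CPM to 197, 199 and 195 CPM (0.60, SE 0.05, adjusted p = 7.35e-07). Neither gene showed overlap between the groups. PSMA5, PSMA1, PSMA4 and PSMA3 rose by log2 fold changes of 0.50, 0.42, 0.33 and 0.30.

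All 9 base genes rose. PSMD2, one of the large scaffold subunits of the base, went from 195, 206 and 216 CPM to 411, 423 and 423 CPM. It had the largest rise of the subunits of the particle and the highest counts of any member, up to 7931 in a library (log2 fold change 1.02, interval 0.92 to 1.13, adjusted p = 3e-09). PSMD1, the other scaffold, rose from 152, 139 and 138 CPM to 244, 248 and 249 CPM (0.79, interval 0.68 to 0.89, adjusted p = 4.22e-08). In both genes the shGDPD5 libraries were tightly grouped and above every shCtrl library.

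The ATPases of the base rose by similar amounts. PSMC5 had a log2 fold change of 0.78, and PSMC1, PSMC4, PSMC6, PSMC3 and PSMC2 had 0.59, 0.57, 0.56, 0.55 and 0.51. PSMC1 needs care as a row: NRDE2 is annotated on the opposite strand over 75.8% of its exon bases, and its 13 pseudogene rows held 4.12% to 8.89% as many counts as the gene. PSMD4, a ubiquitin receptor that bridges base and lid, rose least (log2 fold change 0.24, adjusted p = 0.0044).

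In the lid 6 of 8 genes rose. PSMD3, a scaffold subunit, was at 91.5, 101 and 108 CPM in shCtrl and 171, 169 and 171 CPM in shGDPD5 (log2 fold change 0.77, SE 0.06, adjusted p = 2.44e-07). PSMD13 went from 94.1, 101 and 101 CPM to 162, 162 and 157 CPM (0.70, SE 0.05, adjusted p = 1.17e-07). For both genes every shGDPD5 library was above every shCtrl library. PSMD12, PSMD11, PSMD14 and PSMD6 rose by 0.60, 0.58, 0.55 and 0.40.

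PSMD14, the metalloprotease that cuts ubiquitin chains off the substrate, works as a dimer with PSMD7, and these partners differed. PSMD7 was at 120, 117 and 120 CPM in shCtrl and 111, 111 and 115 CPM in shGDPD5 (log2 fold change -0.09, interval -0.18 to 0.01, adjusted p = 0.12). A noncoding row, AC009120.2, is annotated on the opposite strand over 30.7% of the PSMD7 exon bases. PSMD8 was at 76.9, 86.7 and 91.8 CPM against 87.9, 87.3 and 92.6 CPM, overlapping groups (0.07, interval -0.07 to 0.21, adjusted p = 0.385). Their intervals lie below those of the 6 lid genes that rose. The difference between PSMD14 and PSMD7 was not tested itself.

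**Figure D4:**
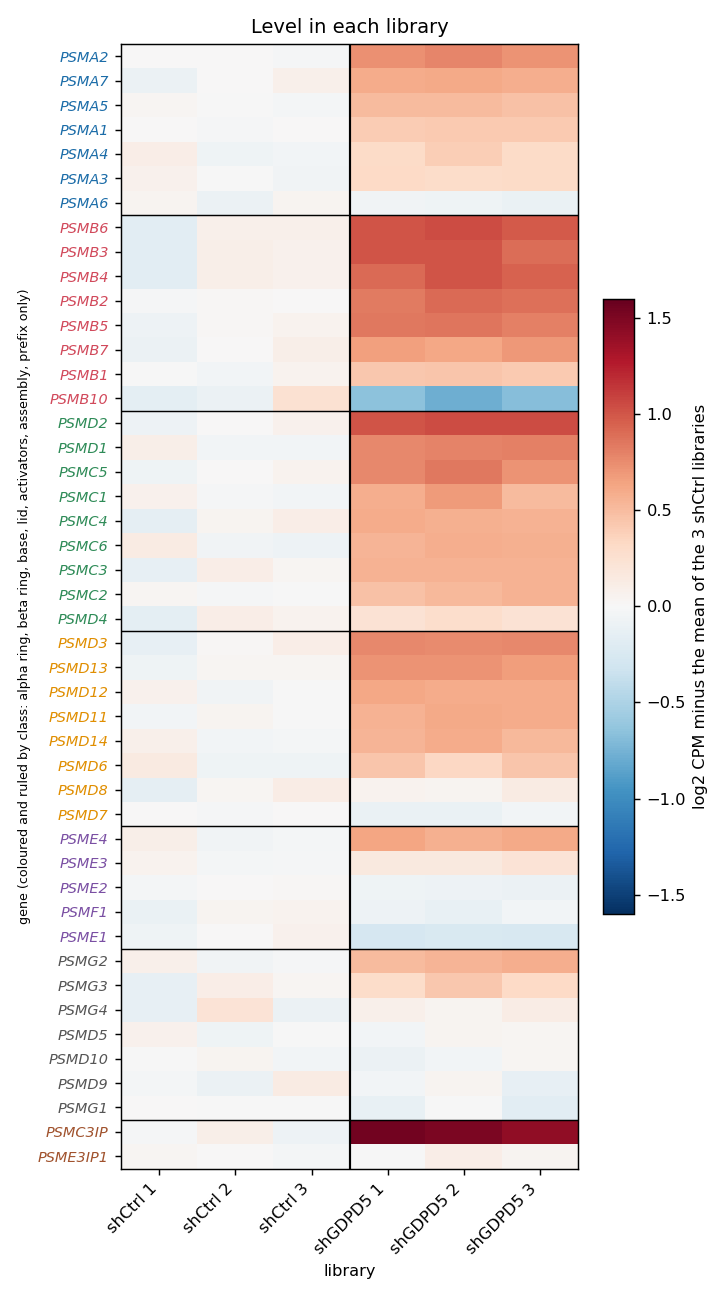
Log2 CPM of the 46 tested members (rows, ruled by class and sorted by change) in the 6 libraries (columns), minus the mean of the 3 shCtrl libraries, with red above and blue below. The 28 core, base and lid genes called higher were raised in each shGDPD5 library. PSMB10 fell as a row by itself, but did not pass with its same-strand row added. PSMA6, PSMD7 and PSMD8 passed no test. In shCtrl replicate 1 the median deviation was -0.12 for the beta ring and 0.04 for the alpha ring.

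The caps did not move together. PSME4, which encodes PA200, the cap found in the nucleus, rose from 106, 95.5 and 97.5 CPM to 154, 148 and 152 CPM (chromosome 2, 53864067 to 53970840, minus strand). Its groups were well separated, with a log2 fold change of 0.60 (interval 0.49 to 0.71, adjusted p = 8.06e-07). PSME3, PA28 gamma, the nuclear 11S activator (chromosome 17, 42824385 to 42843758, plus strand), went from 162, 152 and 154 CPM to 174, 174 and 181 CPM. This was a small rise without overlap (0.18, interval 0.08 to 0.28, adjusted p = 0.0053), and it did not pass against a minimum fold of 1.2.

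PSME1 and PSME2 encode PA28 alpha and beta, which together form the interferon-inducible 11S activator, and they neighbour each other on chromosome 14. PSME1 (24136158 to 24138967, plus strand) fell from 95.2, 100 and 105 CPM to 82.8, 84.5 and 83.7 CPM. The groups did not overlap, and the log2 fold change was -0.26 (interval -0.38 to -0.15, adjusted p = 0.000814). Like the rise of PSME3, this fall did not pass against a minimum fold of 1.2 (adjusted p = 0.434). PSME2 (24143362 to 24147570, minus strand) was at 94.2, 96.2 and 97.5 CPM against 91.3, 90.5 and 90.2 CPM (-0.08, interval -0.18 to 0.02, adjusted p = 0.147). PSMF1, the inhibitor PI31 (chromosome 20, 1113263 to 1189415, plus strand), was at 71, 78.6 and 79.5 CPM against 71.8, 70.3 and 74 CPM, overlapping groups (-0.09, interval -0.21 to 0.04, adjusted p = 0.217). Without shCtrl replicate 1, PSME2 (adjusted p = 0.023) and PSMF1 (adjusted p = 0.00943) passed as lower, as did PSMD7 in the lid (adjusted p = 0.0452).

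Relative to PSME1, both nuclear caps therefore gained. Per kilobase, PSME4 stood at 0.16, 0.137 and 0.133 of PSME1 in shCtrl and at 0.267, 0.251 and 0.261 in shGDPD5, a 1.82-fold change. PSME3 stood at 0.564, 0.5 and 0.484 of PSME1 in shCtrl and at 0.695, 0.683 and 0.717 in shGDPD5, a 1.36-fold change. In neither ratio did the groups overlap, and the exact two-sided permutation p was 0.1 for both, the smallest this design can give.

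**Figure D5:**
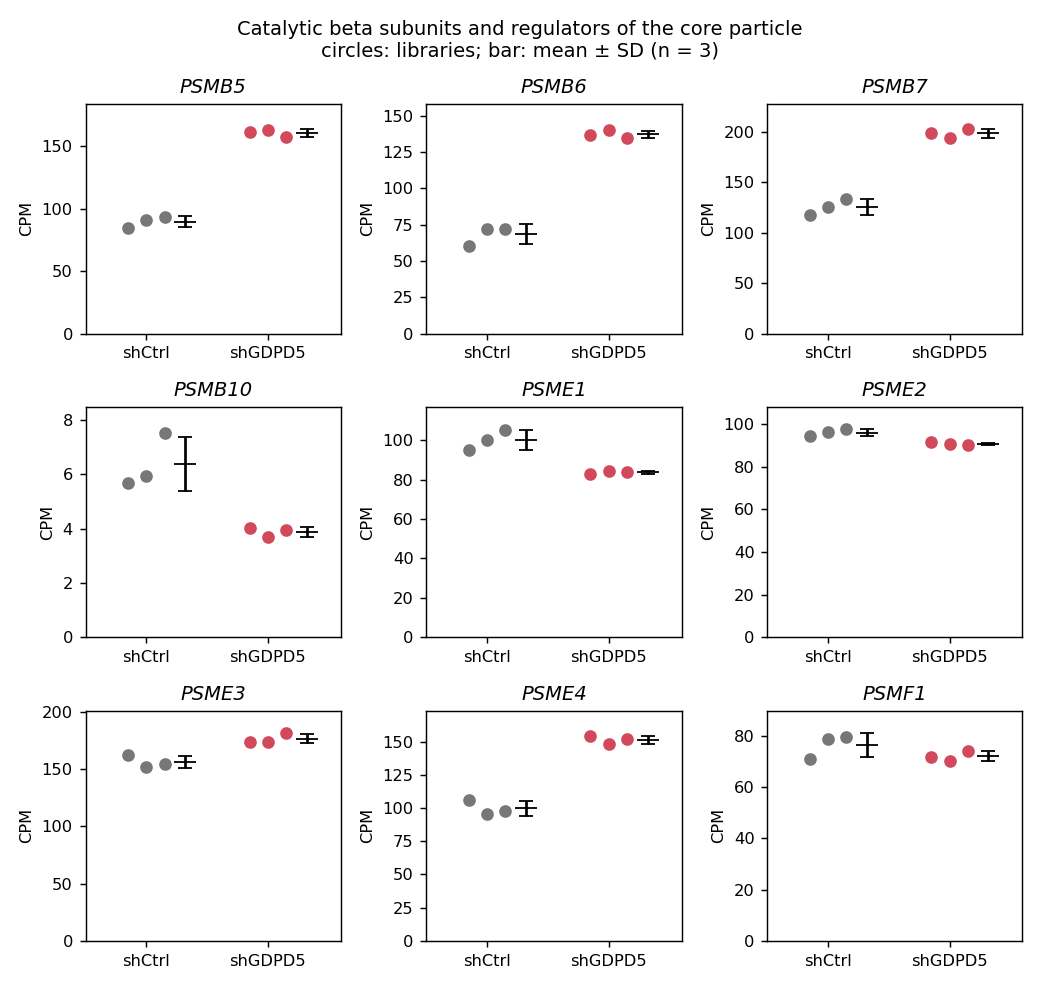
CPM (vertical axes, from 0) of the catalytic beta genes, the 4 caps and PSMF1 in the 3 shCtrl (grey) and 3 shGDPD5 (red) libraries, with the mean ± SD beside each group. PSMB5, PSMB6, PSMB7 and PSME4 were at 1.52 to 2.01 times their shCtrl level, PSME1 at 0.834 times, and PSME2 and PSMF1 at 0.945 and 0.943 times. PSMB10, at 3.68 to 7.51 CPM, shares exons with another row.

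Among the assembly genes 2 of 7 rose (28.6%), a share near the 29.7% of all tested genes that were higher. PSMG2, one partner of the heterodimer that starts the alpha ring, went from 37.9, 34.7 and 35.4 CPM to 51.3, 52.3 and 53.6 CPM (log2 fold change 0.54, SE 0.06, adjusted p = 5.18e-06). Its partner PSMG1 was at 41.2, 40.9 and 40.9 CPM against 37.8, 40.7 and 36.4 CPM (-0.10, interval -0.23 to 0.03, adjusted p = 0.182). PSMG3, of the second heterodimer, rose from 19.2, 22.6 and 21.5 CPM to 25.7, 28.5 and 26.3 CPM (0.35, SE 0.08, adjusted p = 0.00191), while PSMG4 had a log2 fold change of 0.07 (interval -0.17 to 0.31). In each pair, then, one partner passed the test and the other did not, and the difference within a pair was not tested.

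The chaperones of the base, PSMD5, PSMD10 and PSMD9, had log2 fold changes of 0.01, -0.03 and -0.04, with overlapping groups. Their intervals, -0.11 to 0.13, -0.15 to 0.09 and -0.20 to 0.12, lie below those of all base genes except PSMD4.

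Of the members, 2 share the prefix only. PSMC3IP, which acts with the meiotic recombinases in homologous recombination and is no proteasome subunit, had the largest fold change of all members, from 7.42, 7.97 and 7.09 CPM to 21.9, 21.3 and 20 CPM (log2 fold change 1.49, interval 1.29 to 1.68, adjusted p = 3.04e-08). MLX is annotated on the opposite strand over 29.9% of its exon bases. PSME3IP1, a partner of PSME3, was at 82.9, 81.2 and 79.3 CPM against 80.5, 87.1 and 83.9 CPM (0.05, adjusted p = 0.444).

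Genes that work with the proteasome without carrying the prefix did not move as a block. Of 15 other proteasome-associated genes 6 rose and 6 fell (median log2 fold change 0.03), in a table where 29.7% of all genes were higher and 30.1% lower. POMP, the maturation factor of the core particle, rose (0.39, adjusted p = 1.36e-05). UCHL5, a deubiquitinase docked at the base, fell from 125, 111 and 118 CPM to 64.3, 59.6 and 64.3 CPM (-0.91, adjusted p = 5.34e-08). PAAF1, a further base chaperone, fell by 0.98 on the log2 scale (adjusted p = 3.61e-06).

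The pair that brings proteasomes into the nucleus split: the importin IPO9 rose (0.63, adjusted p = 2.01e-07) and AKIRIN2, its adaptor, fell (-0.70, adjusted p = 3.55e-07). SEM1 and ADRM1, subunits of the lid and base whose symbols lack the prefix, rose by 0.34 and 0.42 (adjusted p = 0.000563 and 0.00138). SEM1 and ADRM1 are on this list of 15 for their place in the particle, and were singled out by name after their values were seen.

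Of 12 transcriptional regulators of proteasome genes 1 rose and 6 fell, beside 29.7% and 30.1% of all genes, with a median log2 fold change of -0.14. NFE2L1 was at 524, 569 and 574 CPM in shCtrl and 249, 253 and 245 CPM in shGDPD5 (log2 fold change -1.16, interval -1.26 to -1.06, adjusted p = 9.83e-10). Its mRNA thus moved opposite to that of most core, base and lid genes, in groups that were far apart. Its small MAF partners differed. MAFF fell by 0.88 on the log2 scale (adjusted p = 1.18e-06), MAFG was the 1 regulator that rose (0.35, adjusted p = 7.18e-05), and MAFK was at 0.15 (adjusted p = 0.197). NGLY1, the deglycosylase that processes the NFE2L1 protein, fell by 0.53 (adjusted p = 1.89e-05). NFE2L2, a related factor, fell by 0.42 (adjusted p = 3.38e-05). DDI2, also on this list, fell by 0.41 (adjusted p = 4.45e-05). NFE2L1 acts after cleavage and transport of its protein, which these libraries do not measure.

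Of 15 ubiquitin and shuttle genes 6 rose and 3 fell (median log2 fold change 0.00), again beside 29.7% and 30.1% of all genes. The segregase that extracts ubiquitylated proteins was raised in all 3 of its parts: VCP (0.87, adjusted p = 3.27e-08) and its cofactors UFD1 (0.95, adjusted p = 2.33e-08) and NPLOC4 (0.71, adjusted p = 1.88e-07). RAD23B, which carries ubiquitylated proteins to the base, fell from 660, 619 and 610 CPM to 416, 411 and 408 CPM (-0.61, adjusted p = 1.33e-07).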

How the data were processed

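The values deposited by the authors are estimated counts, in 1 table of 79302 rows for the 6 libraries. Per the labels, total RNA was converted with a SMARTER mRNA-Seq kit. Not given in the sources used here: aligner, counter, genome build and whether counting used strand. Groups came from the sample labels. Estimated counts were rounded, filtered with the default of edgeR (minimum count 10) and scaled by TMM. The quasi-likelihood test of edgeR 4.0.16 (R 4.3.3, limma 3.58.1) with Benjamini-Hochberg adjustment ran over all 16755 remaining genes. The common biological coefficient of variation was 0.0555. Genes with few counts have wider intervals.

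The members, classes, related lists and motifs were chosen with earlier results of these data known. Full values are given for the catalytic subunits, the caps, PSMF1 and, in each class, up to 2 called genes of largest change in each direction. Related lists give up to 4 genes of smallest adjusted p, with NFE2L1 and POMP. MAFG, MAFK, DDI2, SEM1 and ADRM1 were named outside this rule. Gene positions, transcript lengths and exon overlaps are from GENCODE release 29 on GRCh38, and promoters from RefSeq. The fit was tested on simulated data. Alternatives were RLE and upper quartile factors, total counts alone, limma-voom, DESeq2 1.42.0, the study's kind of per-gene test on log2(CPM + 1), other count filters, a minimum fold of 1.2, the thresholds of the study, a replicate block and each library left out. Adding the counts of same-strand rows over at least 10% of a member's exon bases was chosen after seeing the data, as was the study's fold over 1.5 or under 0.5.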

Additional observations from a re-analysis of the deposited data

How the results depend on the processing

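The count of 33 higher members held under every scaling, filter and library left out, DESeq2, limma-voom and the added same-strand counts. It was 32 with the per-gene test, 28 against a minimum fold of 1.2, 17 with the study's fold over 1.5 or under 0.5, and 3 with its log2 change of at least 1. The count of 2 lower members was 1 against a minimum fold of 1.2, 1 with the same-strand counts added, 4 with the per-gene test and 0 with either fold criterion of the study. With 1 library left out it ran from 2 to 5, the highest without shCtrl replicate 1.

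Total counts alone moved the medians to 0.66 for the core, 0.63 for the base, 0.63 for the lid, -0.02 for the activators and 0.07 for the assembly genes. The median over all tested genes moved with them, from 0.01 to 0.07. No filter gave -0.00 for the assembly genes. With 1 library left out, the core median ran from 0.55 to 0.64 and the assembly median from -0.01 to 0.04.

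Of 35 called members, 28 kept direction and call under every alternative but the study's fold criteria, which were run for the counts only. PSMA3, PSMA4, PSMD4, PSME1, PSME3 and PSMG3 lost the call against a minimum fold of 1.2, PSMD4 also with the per-gene test, and PSMB10 with the same-strand counts added. Values that changed sign were near 0 and passed no test: PSMD10 (0.03) and PSMD9 (0.02) with total counts alone, PSMD5 (-0.00) with no filter, PSMA6 (0.00) with the same-strand counts, and, with 1 library left out, PSMD8 (-0.00 to 0.12), PSMD5 (-0.02 to 0.04) and PSMD9 (-0.10 to 0.02). The cause was not tested.

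Same-numbered libraries showed no shared deviation (correlations -0.07, -0.0517 and -0.041). This cannot tell whether they were handled as pairs, since a small shared effect could go unseen. With a replicate block 33 members were higher and 2 lower.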
